A study of Drosophila melanogaster with 12 samples.

Results

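The 110 genes described here are the protein-coding genes of Drosophila melanogaster that lie wholly within a 1200 kb stretch of chromosome arm 3L, from 17500000 to 18700000 on the BDGP6 assembly, around Polr3D. Polr3D itself (18107848 to 18109574, minus strand) served as the landmark and was not counted among them. They were chosen by position, 65 at lower and 45 at higher coordinates than Polr3D. The stretch was drawn with the difference between the genotypes at CG7542 already known, so the values of that gene are given without a test, and the counts of genes called below are a description. The count table held 105 of the 110, out of 12759 protein-coding genes and 14383 genes of all kinds, and 2409 protein-coding genes came from the rest of 3L. CheB74a, CG42815, CG32189, Met75Ca and Dic4 had no row in it. Oatp74D crosses the lower edge and was left out.

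Ribosome-protected fragments, here called footprints, were sequenced from whole female flies by Ribo-Seq, and RNA of the same genotypes was sequenced by RNA-Seq. The wild type was the White Dahomey stock, an outbred population carrying w1118. The mutants, written Polr3D EY/+, were heterozygous for the P-element insertion EY22749 in Polr3D, which encodes a subunit of RNA polymerase III, and had been backcrossed into that population. The question was what a partial loss of this polymerase does to the RNA and the translation of particular genes. Each library came from a pool of whole flies, so a lower level of a gene and fewer cells expressing it cannot be told apart.

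A P element is a mobile DNA that is used in flies to disrupt genes, and those of the EY collection carry copies of white and yellow as visible markers. An insertion may also change the expression of genes beside it, through its own promoters and enhancers or through the loss of a control sequence at the site. When it is moved into another stock by repeated crossing, flanking DNA from the stock in which it arose is carried along, because recombination close to the insertion is rare. Genes on this flanking DNA can therefore differ in sequence between a mutant and its control, besides the gene that was hit. How far it reaches in these flies was not tested.

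There were 3 Ribo-Seq libraries of each genotype, which held 47136883 to 87054266 counts, but only 1127599 to 3192166 of them (1.90% to 3.67%) fell on protein-coding genes. For RNA-Seq, 2 wild-type and 3 mutant libraries were analysed, with 24496792 to 28984254 counts, 99.0% to 99.2% of them on protein-coding genes. Levels are given as CPM, counts scaled to a total of 1000000 protein-coding counts per library. A single count was thus worth 0.0348 to 0.0412 CPM in RNA-Seq and 0.313 to 0.887 CPM in Ribo-Seq, so the footprint values carry the larger counting error. Spearman correlations were 0.981 to 0.995 between RNA-Seq libraries and 0.958 to 0.974 between Ribo-Seq libraries. Wild-type replicate 3 was left out of the fitted model, and its Ribo-Seq values are given as a library outside the fit. Of 17 genes expressed in males, the summed RNA was 28.8 CPM in the mutant replicate 1 library and 0 to 0.144 CPM in the other 4. Their summed footprints were 144 CPM in wild-type replicate 2, 82.4 in mutant replicate 3 and 13.8 in mutant replicate 2, against 0 to 0.878 in the others.

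The landmark gene was lower in every mutant library. Polr3D RNA was 51.7 and 63.6 CPM in wild type and 30.5, 29.6 and 30.5 CPM in Polr3D EY/+. Its footprints were 28.7, 28.4 and 24.4 CPM in wild type and 8.78, 16.0 and 10.9 CPM in Polr3D EY/+. The genotypes did not overlap in either assay. In the DESeq2 model, Polr3D RNA fell by 0.92 on the log2 scale (SE 0.25, adjusted p = 0.0284), and the footprint difference was -1.17 (SE 0.34, adjusted p = 0.153). The RNA call was lost with RNA-Seq fitted alone and without wild-type replicate 1 or 2, mutant replicate 1 or 2, or the RNA-Seq library of mutant replicate 1, with log2 values of -1.03 to -0.89 over all alternatives. Footprints were called with all 11 libraries (adjusted p = 0.0395) and with no replicate block (adjusted p = 0.0285).

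The marker gene of the insertion was present in the labelled mutants. White (w), which encodes a transporter of eye pigment precursors, had 1.29 and 2.45 CPM of RNA in wild type and 10.7, 12.3 and 9.03 CPM in Polr3D EY/+, a rise of 2.67 on the log2 scale (DESeq2 adjusted p = 0.000144). Its footprints were 0, 0 and 0.763 CPM in wild type and 8.78, 8.14 and 5.89 CPM in Polr3D EY/+. Yellow (y), the other marker, was not called, with an RNA difference of 0.11.

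**Figure D1:**
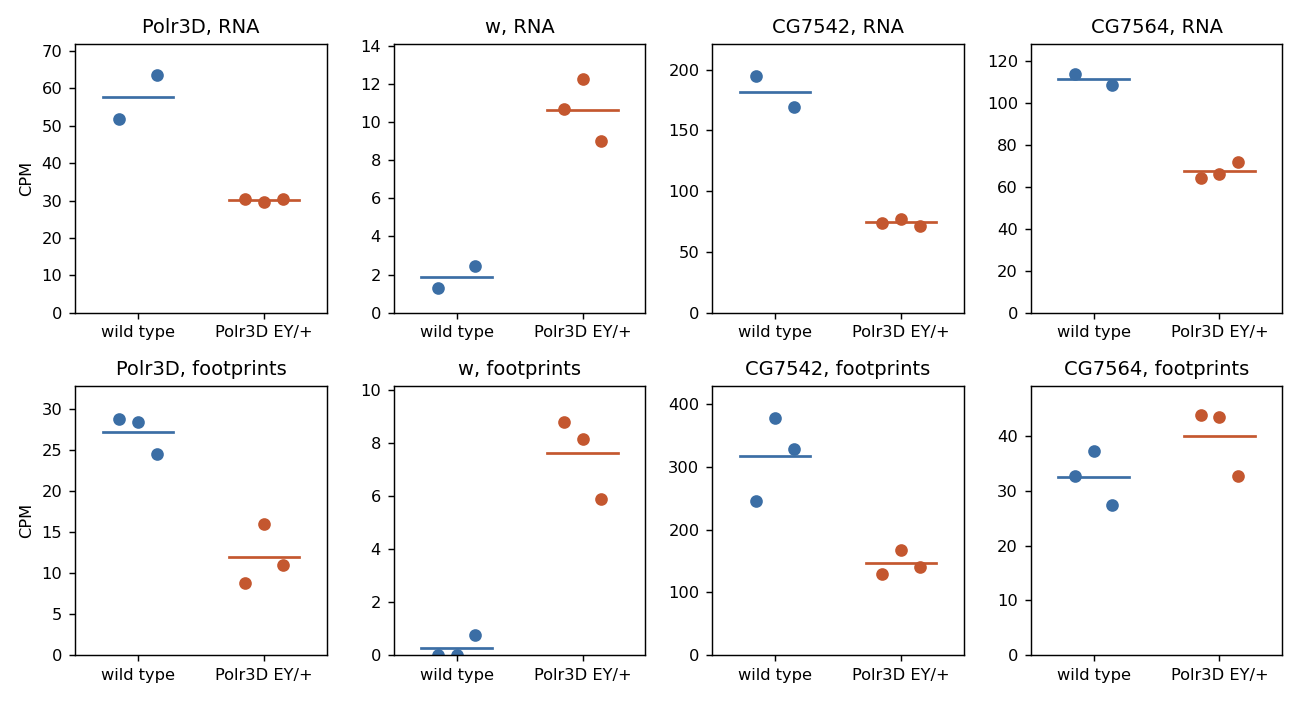
CPM (vertical axes, from 0) of Polr3D, w, CG7542 and CG7564 in RNA-Seq (upper row) and Ribo-Seq (lower row). Each point is 1 library, blue for wild type and red for Polr3D EY/+, lines are means, and wild-type replicate 3 of Ribo-Seq is included. The genotypes stand apart in all panels except the footprints of CG7564, where the wild-type values of 27.5 to 37.2 CPM overlap the mutant values of 32.8 to 43.9 CPM.

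An adjusted p under 0.1 (Benjamini-Hochberg, over all genes tested) was taken as a call. In RNA, 3 of the 96 genes of the stretch that received an adjusted p were called, CG7564 and CG7542 lower and CG32192 higher in Polr3D EY/+, where 1.02% of all genes tested were called, 0.892% higher and 0.128% lower. In footprints, CG7542 was the 1 gene called of 105, where 0.369% of all genes were, 0.0767% lower. For translation efficiency, the difference between the footprint and the RNA change, DESeq2 called 0 of 105, against 0.265% of all genes. CG7564 was the 1 gene with an unadjusted p under 0.05 there, in DESeq2 and in edgeR alike, where 1.66% and 2.74% of all genes were under it, and edgeR called 0 against 0.0487% of all. By edgeR, RNA and footprints each had 1 call, CG7542, where 0.104% and 0.299% of all genes were called. CG7542 was known to differ when the stretch was drawn, so its calls do not show how often genes of the stretch differ. Leaving it out, no gene was called in footprints or by edgeR, and CG7564 and CG32192 remain in RNA by DESeq2.

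Many of the genes had few counts. A minimum mean of 10 normalised counts was required in RNA-Seq and in Ribo-Seq. Of the 105, 60 reached it in both, 4 in RNA alone and 6 in footprints alone. Normalised counts are counts divided by a size factor of the library, fitted over both assays together. These factors were 0.172 to 0.474 in Ribo-Seq and 4.29 to 5.04 in RNA-Seq. The minimum thus took far fewer raw counts in footprints than in RNA. CG13698 reached it with 2 to 19 footprint counts a library, so the 60 genes are not free of counting error there. No footprint was counted for 19 genes in any of the 6 Ribo-Seq libraries, and 11 genes had 3 counts or fewer in every RNA-Seq library. Among these low genes were the odorant-sensing ionotropic receptors Ir75a, Ir75b and Ir75c, the allatostatin C receptors AstC-R1 and AstC-R2, and the cell death genes grim and skl. In the plot of log2 change along the arm, CG7542 and CG7564 stand close together near the lower end of the stretch.

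**Figure D2:**
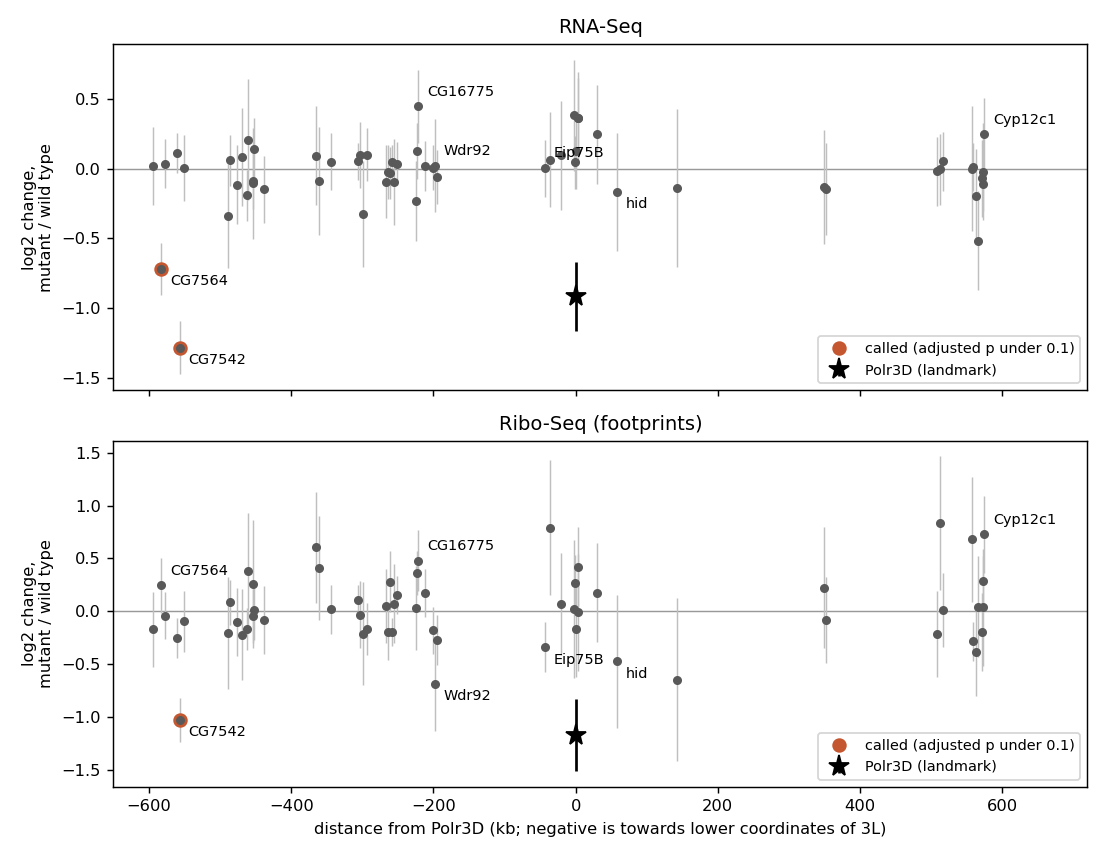
Log2 change of RNA (upper panel) and footprints (lower panel), Polr3D EY/+ over wild type, against distance from Polr3D in kb, for the 60 genes that reached a mean of 10 normalised counts in both assays. Points are DESeq2 estimates with bars of 1 SE, red points are called, and the star is Polr3D. In RNA, CG7542 (-1.28) and CG7564 (-0.72) lie below the other genes, which run from -0.52 to 0.45.

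CG7542 (17549826 to 17550980, plus strand) lies 557 kb from Polr3D and encodes a protein predicted to be a trypsin-like serine endopeptidase. It had 195 and 169 CPM of RNA in wild type and 74.2, 77.3 and 71.3 CPM in Polr3D EY/+. Its footprints were 246, 378 and 328 CPM in wild type and 129.9, 168 and 140.4 CPM in Polr3D EY/+. No mutant library reached the lowest wild-type library in either assay. The log2 differences were -1.28 (SE 0.19) in RNA and -1.03 (SE 0.21) in footprints, which left 41.1% and 49.0% of the wild-type level. Footprints per RNA differed by 0.25 (SE 0.27) on the log2 scale. It was the 1 gene of the 60 that was lower without overlap in both assays, where 0.614% of all genes of that abundance were. This is a description, since its difference was known when the stretch was drawn.

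Both annotated transcripts of CG7542 were lower. They share a coding sequence of 810 nt and have lengths of 833 and 1155 nt. The shorter had 171 and 139 CPM of RNA in wild type and 63.5, 66.7 and 60.5 CPM in Polr3D EY/+. The longer had 23.5 and 29.6 CPM in wild type and 10.7, 10.6 and 10.8 CPM in Polr3D EY/+. The shorter held 82.5% to 87.9% of the RNA counts of the gene in wild type and 84.8% to 86.3% in the mutants, with overlapping values.

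Digestive enzymes of the gut, among which are many trypsin-like proteases of the fly, were not lower as a group. The summed RNA of 33 listed gut enzyme genes was 18866 and 20503 CPM in wild type and 20229, 18954 and 20411 CPM in Polr3D EY/+. DESeq2 called 2 of them higher in RNA (Mal-A7 and Mal-A8) and 3 higher in footprints (Jon25Biii, Jon44E and Mal-A8), and none lower, where 1.02% and 0.369% of all genes were called. By edgeR 0 of the 33 were called in RNA and 2 in footprints, where 0.104% and 0.299% of all genes were called. At an unadjusted p under 0.05, edgeR had 4 in RNA and 12 in footprints, and DESeq2 had 4 and 10. The share of all genes at that p is not given here, so these counts are not a result about gut enzymes. The median log2 footprint difference of the 30 that reached a mean of 10 normalised counts in both assays was 0.30, against -0.01 over 8597 protein-coding genes. Jon74E, a Jonah serine protease 698 bp from CG7542, had 2.12 and 1.39 CPM of RNA in wild type and 3.37, 3.59 and 3.55 CPM in Polr3D EY/+. Its mutant libraries were all above its wild-type libraries, and its footprints, 0 to 8 counts a library, were too few to compare.

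CG7564 (17514298 to 17524740, plus strand), 583 kb from Polr3D and 25.1 kb from CG7542, was called lower in RNA and was not called in footprints. Its RNA was 114 and 109 CPM in wild type and 64.4, 66.1 and 71.8 CPM in Polr3D EY/+. Its footprints were 32.8, 37.2 and 27.5 CPM in wild type and 43.9, 43.5 and 32.8 CPM in Polr3D EY/+. The RNA values of the genotypes did not overlap, and the footprint values did. RNA fell by 0.72 on the log2 scale (SE 0.19, DESeq2 adjusted p = 0.0243), and the footprint difference was 0.24 (SE 0.26, adjusted p = 1.0). Footprints per RNA were 0.287 and 0.343 in wild type and 0.681, 0.659 and 0.457 in Polr3D EY/+, a log2 difference of 0.96 (SE 0.31) that did not pass the adjustment (DESeq2 adjusted p = 0.394). The RNA call was lost in edgeR (adjusted p = 0.256) and with RNA-Seq fitted alone. It was also lost without either wild-type replicate, mutant replicate 1 or 2, or the RNA-Seq library of mutant replicate 1. The log2 values were -0.79 to -0.63 over the replicates left out.

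The annotation gives CG7564 4 transcripts, which begin at the same position and share a coding sequence of 1260 nt, and 3 of them had a row in the count table. These 3 consist of a single exon each and differ in how far they run past the coding sequence, with lengths of 1587, 2639 and 10443 nt. The fourth is spliced and had no row. The longest is FBtr0345387, and it had 2984 and 2349 counts of RNA in wild type and 1091, 1525 and 1260 in the mutants. That was 93.9% and 88.5% of the RNA counts of the gene in wild type, and 69.7%, 80.4% and 70.7% in the mutants. The middle one, FBtr0331842, had 0 counts in both wild-type libraries and 157, 138 and 165 in the mutants. Against a floor of 3 counts per library this is 51.9-fold on the CPM scale. That floor covers counting error only, not how reads were divided between transcripts, so the fold is no lower bound. The shortest, FBtr0075175, had 194 and 306 counts in wild type and 318, 234 and 356 in the mutants.

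The lower RNA of CG7564 was thus that assigned to the longest transcript. Counts were summed without scaling for length, so the RNA of this gene and its footprints per RNA also follow reads past the coding sequence. The 2 shorter transcripts together had 6.96 and 12.5 CPM of RNA in wild type and 19.5, 13.0 and 21.0 CPM in Polr3D EY/+, where the lowest mutant library was just above the highest wild-type library. None of the 3 transcripts was called when transcripts were fitted singly. For the longest the log2 difference was -1.06 (SE 0.50, DESeq2 adjusted p = 0.954). Salmon divides reads that match several transcripts by a model, so reads of the shared start can move between these 3 transcripts, and the 0 of FBtr0331842 in wild type is an estimate of this kind. Footprints were assigned almost wholly to the shortest, with 0 to 5 counts a library on the longest. That split carries no information on which RNA was translated, since all 3 share 1 coding sequence.

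**Figure D3:**
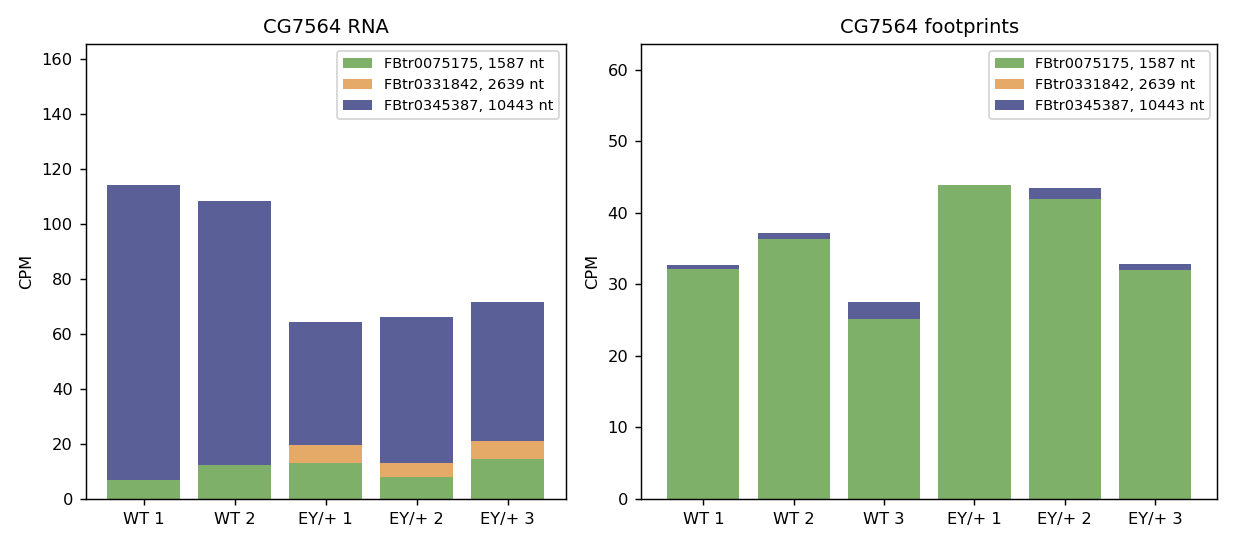
CPM (vertical axis, from 0) of the 3 transcripts of CG7564 in the count table, in each RNA-Seq library (left) and each Ribo-Seq library (right), stacked in the order of their length. WT is wild type and EY/+ is Polr3D EY/+, followed by the replicate number. The longest transcript has 96.0 and 107 CPM of RNA in wild type and 44.9 to 53.1 CPM in the mutants, and the middle one has counts in the mutants alone.

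The genes beside and between CG7564 and CG7542 were not called. Edc3, a decapping activator 592 bp from CG7564, had an RNA difference of 0.04 (SE 0.18). Nedd4, an E3 ubiquitin ligase 3.2 kb from CG7542, had 195 and 215 CPM of RNA in wild type and 217, 224 and 192 CPM in Polr3D EY/+. CycT, the cyclin of the elongation factor P-TEFb, lies 23 bp from CG7542 on its other side and had 52.6 and 70.4 CPM in wild type and 65.2, 53 and 61.6 CPM in the mutants. The RNA values of Nedd4 and CycT overlapped between the genotypes, with log2 differences of 0.11 and 0.01.

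CG32192 and Met75Cb followed single libraries. CG32192, nested in Eip75B, had 11 counts in the RNA-Seq library of mutant replicate 1 and 0 counts in the other 10 libraries, so its call rests on that library and gives no usable fold. Met75Cb had 7.33 CPM of RNA in mutant replicate 1 and 0 to 0.0359 CPM in the other RNA-Seq libraries. Its footprints were 0, 49.7 and 0 CPM in wild type and 0, 46.4 and 106 CPM in Polr3D EY/+. The libraries with over 1 CPM of Met75Cb were also those with over 1 CPM of the male-expressed genes above, 10 of which DESeq2 called higher in RNA. The part of male RNA in these values was not tested.

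The genes next to the insertion gave no call. Polr3D and mus304, a DNA damage checkpoint gene, start 240 bp apart in opposite directions. On the other side, mRpS26, which encodes a protein of the small subunit of the mitochondrial ribosome, runs towards Polr3D and ends 348 bp from it. For mRpS26, RNA was 79.7 and 70.1 CPM in wild type and 74.9, 79.3 and 67.8 CPM in Polr3D EY/+. For mus304, RNA was 33.3 and 35.5 CPM in wild type and 39.2, 38.8 and 34.1 CPM in Polr3D EY/+. The genotypes overlapped for both genes, with log2 differences in RNA of 0.05 (SE 0.19) and 0.13 (SE 0.27), and in footprints of 0.26 (SE 0.26) and -0.17 (SE 0.45).

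Among the 10 nearest genes, 5 on each side, DESeq2 and edgeR called 0 in RNA and 0 in footprints, and 0 had an unadjusted p under 0.05 in either. CG13698, 1.7 kb away, had 20.03 and 26.4 CPM of RNA in wild type and 31.0, 24.9 and 31.3 CPM in Polr3D EY/+, a log2 difference of 0.38 (SE 0.40) with overlapping groups. CG7341 had 19.5 and 18.8 CPM in wild type and 23.0, 26.7 and 19.8 CPM in Polr3D EY/+, without overlap and with a difference of 0.37 (SE 0.33). CG7341 shares its annotated start with CG32195, which had a difference of 0.37 (SE 0.28), and reads of the shared stretch cannot be told apart fully. The other near genes CG44004, CG42853 and Cyp312a1 had under 2.5 CPM of RNA in every library.

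**Figure D4:**
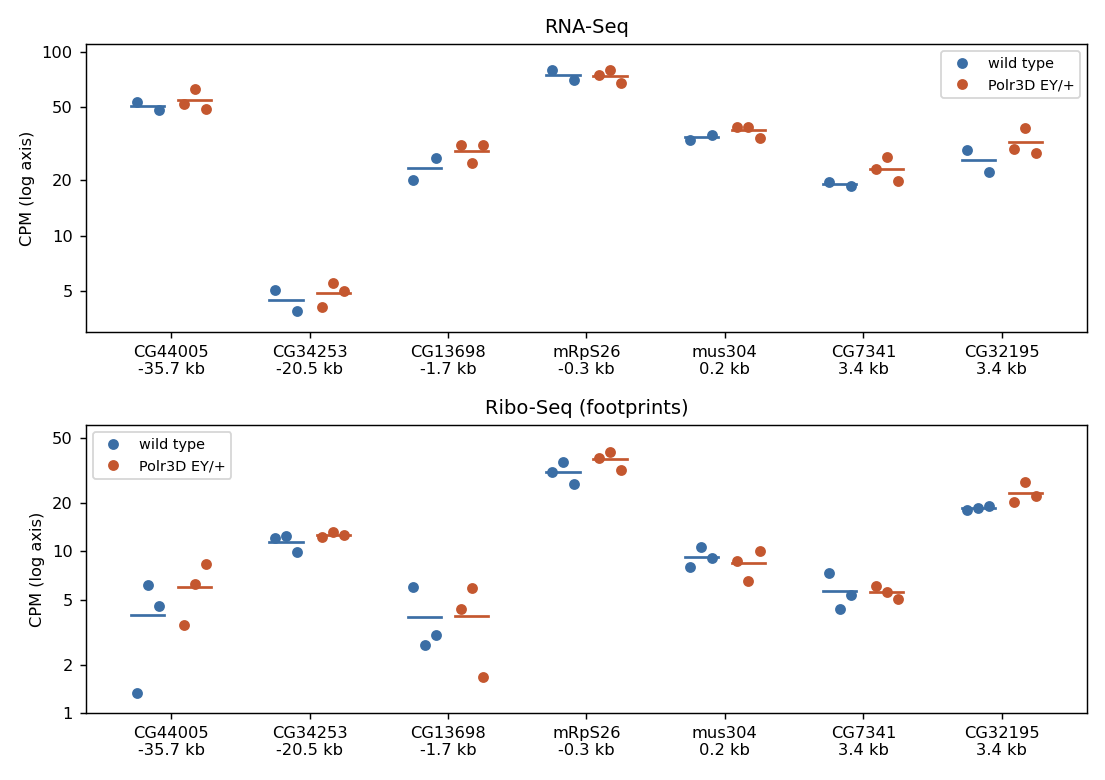
CPM (log axes) of the 7 of the 10 genes nearest to Polr3D that reached a mean of 10 normalised counts in both assays, in RNA-Seq (upper panel) and Ribo-Seq (lower panel), ordered by distance from Polr3D. Points are libraries, blue for wild type and red for Polr3D EY/+, and lines are means. The genotypes overlap in RNA for all but CG7341 and in footprints for all but CG32195.

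All 9 genes within 50 kb that reached the abundance minimum had RNA differences at or above 0, from 0.01 to 0.38 with a median of 0.13. Over all protein-coding genes of that abundance, 4243 of 8597 were below 0. None of the 9 was called, and CG7341 and CG32195 share a start. All but CG13698 and CG7341 were below 0 in RNA in at least 1 alternative fit. The footprints of the 9 genes had a median of 0.07, with 3 of 9 below 0. From 50 to 200 kb, 4 genes reached the minimum, and their RNA median was -0.10 and their footprint median -0.56. The footprint values ran from -0.68 to -0.27, and none of the 4 was called. Among them, hid had 4 to 16 footprints a library, and Wdr92 and CG5290 overlap on opposite strands. From 200 to 400 kb the medians over 20 genes were 0.01 in RNA and 0.06 in footprints, and beyond 400 kb they were -0.02 and -0.05 over 27 genes. The called genes of that abundance, CG7542 and CG7564, were in the last class.

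Beside other genes, the changes of the stretch had these sizes. The median absolute RNA change of its 60 genes was 0.10, against 0.08 for 1575 genes of the rest of 3L and 0.07 for 8597 protein-coding genes. An RNA change of over 0.5 was seen for 3 of the 60 (5.0%), CG7542, CG7564 and GNBP1, against 2.16% in the rest of 3L and 2.26% of all. Without CG7542, whose change was known when the stretch was drawn, it was 2 of 59 (3.39%). In footprints, 8 of the 60 (13.3%) passed 0.5, against 14.8% of all protein-coding genes. The RNA and footprint changes of the 60 genes had a Pearson r of 0.43 and a Spearman rho of 0.31, and 0.24 and 0.28 without CG7542, against 0.03 and 0.12 over 8637 genes of that abundance. The Pearson values rest on unlike ranges, since RNA changes reached 20.1 over all protein-coding genes but ran from -1.28 to 0.45 in the 60. All of these are correlations across genes, which are not independent replicates.

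After CG7542 and CG7564, the most negative RNA differences were those of GNBP1, Eip74EF, CG32191 and CG7408, and none of these 4 was called. GNBP1, a pattern recognition protein of the immune response to Gram-positive bacteria, had 10.1 and 12.1 CPM of RNA in wild type and 8.97, 7.24 and 7.74 CPM in Polr3D EY/+. The genotypes did not overlap, the log2 difference was -0.52 (SE 0.35), and the footprint difference was 0.04 (SE 0.48). GNBP2, the gene next to it, had an RNA difference of -0.20. CG32191 and CG7408 had RNA differences of -0.32 (SE 0.38) and -0.23 (SE 0.29), again with no overlap. In all, 6 of the 60, CG7542 among them, were lower in RNA without overlap (10%), where 5.44% of all genes of that abundance were. Higher without overlap were 2 of the 60 (3.33%), CG7341 and Cyp12c1, where 5.19% of all were.

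The most positive RNA differences were those of CG16775, CG13698, CG32195, CG7341, Cyp12c1 and geko, and none was called. Cyp12c1, a cytochrome P450 of the mitochondrial class, had 27.8 and 28.9 CPM of RNA in wild type and 35.4, 35.9 and 31.6 CPM in Polr3D EY/+. Its footprints were 14.0, 17.7 and 15.3 CPM in wild type and 28.1, 20.4 and 32.8 CPM in Polr3D EY/+. It was the 1 gene of the 60 that was higher without overlap in both assays, where 0.486% of all genes were, with log2 differences of 0.25 (SE 0.26) in RNA and 0.73 (SE 0.36, DESeq2 adjusted p = 1.0) in footprints.

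CG16775 had 60.2, 71.8 and 65.6 CPM of footprints in wild type and 86.9, 84.9 and 91.7 CPM in Polr3D EY/+, without overlap. Its RNA was 50.6 and 34.2 CPM in wild type and 50.9, 71.5 and 48.0 CPM in Polr3D EY/+, where the groups overlapped. The log2 differences were 0.45 (SE 0.26) and 0.48 (SE 0.29). CG5506, 1.6 kb from it, had 299, 311 and 320 CPM of footprints in wild type and 359.8, 378 and 415 CPM in the mutants, a difference of 0.36 (SE 0.21) that was not called. In footprints 5 of the 60 were higher without overlap (8.33%), where 5.36% of all were, and 8 were lower (13.3%), where 6.58% were.

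The 8 with lower footprints were CG7542, Cln3, CG7430, Wdr92, CG5290, Eip75B, hid and Capr, and CG7542 was the 1 called. Wdr92, known for a part in the assembly of the dynein motors of cilia, had 14.7, 16.9 and 15.3 CPM of footprints in wild type and 14.0, 6.89 and 10.9 CPM in Polr3D EY/+. Its RNA overlapped, at 12.5 and 14.1 CPM in wild type and 12.8, 14.5 and 14.9 CPM in Polr3D EY/+, and the log2 differences were 0.02 (SE 0.34) in RNA and -0.68 (SE 0.45) in footprints. CG7430, predicted to encode the dihydrolipoyl dehydrogenase of mitochondria, had 336, 333 and 317 CPM of footprints in wild type and 302, 289 and 259 CPM in Polr3D EY/+. Its differences were 0.05 in RNA and -0.20 in footprints, and those of Cln3, a lysosomal membrane protein, were 0.10 and -0.17.

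The activators of cell death lie on the side of higher coordinates. The products of hid, grim, rpr and skl (sickle) bind the inhibitor Diap1 and so free caspases, the proteases that carry out apoptosis. The RNA of hid, 58.2 kb from Polr3D, was 14.1 and 10.5 CPM in wild type and 9.51, 11.8 and 12.1 CPM in Polr3D EY/+, which overlap, with a log2 difference of -0.17 (SE 0.42). Its footprints were 5.35, 7.09 and 8.40 CPM in wild type and 4.39, 5.01 and 3.36 CPM in Polr3D EY/+. Those groups did not overlap, but they rest on 4 to 16 counts a library, and the difference of -0.47 (SE 0.63) was not called.

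The RNA of grim, rpr and skl was under 0.6 CPM in every library, and footprints of these 3 genes were 0 or 1 count a library. A difference in them was not detectable at this depth. Elsewhere in the genome, 12 genes of the same pathway (among them Diap1, Dronc, Dark and Drice) were measured, with a median RNA difference of 0.02. DESeq2 called 0 of these 12 in RNA and 0 in footprints, and by unadjusted p under 0.05 it had 0 in RNA and 1 (Strica) in footprints. By edgeR the calls were 0, with Damm in RNA and Strica in footprints under the unadjusted threshold.

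The stretch holds the ecdysone-induced genes Eip74EF and Eip75B, and neither was called. Ecdysone is the steroid hormone of moulting and egg maturation, and its receptor switches on early genes that were first seen as puffs of the giant chromosomes. Eip75B, a nuclear receptor 43.2 kb from Polr3D, had 32.8 and 28.3 CPM of RNA in wild type and 32.3, 27.4 and 37.0 CPM in Polr3D EY/+, a log2 difference of 0.01 (SE 0.20). Its footprints were 84.9, 83.4 and 81.7 CPM in wild type and 59.7, 74.2 and 67.3 CPM in Polr3D EY/+, lower without overlap, with a difference of -0.34 (SE 0.24) that was not called. Eip74EF, an ETS-domain transcription factor, had 13.4 and 10.8 CPM of RNA in wild type and 9.22, 9.99 and 12.6 CPM in Polr3D EY/+, which overlap.

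All 13 listed genes of the ecdysone response were measured, EcR, usp, br and ftz-f1 among them, and their median RNA difference was 0.01. In RNA and in footprints, DESeq2 and edgeR called 0 of them, and 0 had an unadjusted p under 0.05. Pep, a protein found on the ecdysone puffs, had 229 and 296 CPM of RNA in wild type and 268, 192 and 274 CPM in Polr3D EY/+, overlapping.

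Pairs of genes with a shared function elsewhere in the stretch were not called either. Nonstop (not) and Sgf11, both of the module of the SAGA complex that removes ubiquitin from histone H2B, had RNA differences of -0.02 and -0.07. Vps60 and Chmp1, both of the ESCRT-III family that cuts membranes, had 0.06 and -0.11. Capr, the fly caprin, an RNA-binding partner of FMR1, had 296 and 344 CPM of RNA in wild type and 359, 280.3 and 354 CPM in Polr3D EY/+. Its footprints were 363, 339.7 and 368 CPM in wild type and 255, 319.5 and 297 CPM in the mutants, lower without overlap, with a difference of -0.29 (SE 0.18) that was not called. Adgf-A, a secreted adenosine deaminase, had an RNA difference of 0.05.

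Footprints per RNA, the ratio of the CPM of a gene in the 2 assays, covered a wide range over the genes of the stretch. The median over the 60 genes in wild-type replicates 1 and 2 was 0.821, against 0.826 over all genes of that abundance, and the range was 0.0509 to 3.20. The lowest were bora (0.0509), an activator of the mitotic kinase Aurora A, CG44005 (0.0742), CG13698 (0.187) and MYPT-75D (0.201), a targeting subunit of myosin phosphatase. The highest were NUCB1 (3.20), a calcium-binding nucleobindin, Eip75B (2.75), CG34253 (2.71) and CG7497 (2.26). In the mutants the ratio was 0.0911 for bora, 0.111 for CG44005, 3.26 for NUCB1 and 2.08 for Eip75B, and whether these differ from wild type was tested as translation efficiency, with no call. RNA reads cover whole transcripts and footprints the coding part, so this ratio also follows how much of a transcript is coding. Below 0.25 were 6.67% of the 60 and 8.52% of all genes, and above 2 were 6.67% and 11.1%.

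**Figure D5:**
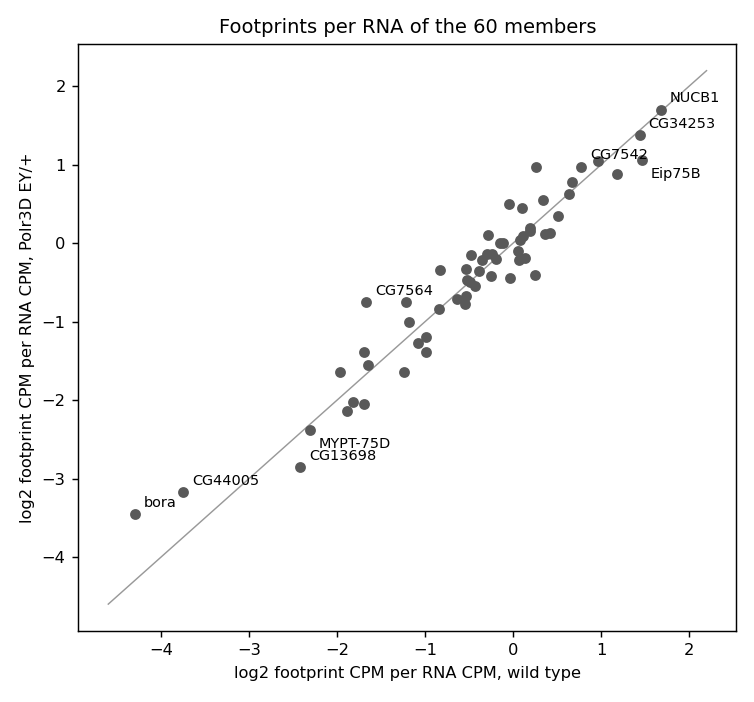
Log2 of footprint CPM per RNA CPM in Polr3D EY/+ (vertical axis, 3 replicates) against wild type (horizontal axis, replicates 1 and 2), as the ratio of the mean CPM of the assays, for the 60 genes that reached a mean of 10 normalised counts in both assays. Each point is 1 gene and the line marks equal values. The ratios run from bora, at 0.0509 in wild type and 0.0911 in the mutants, to NUCB1, at 3.20 and 3.26, and CG7564 (0.314 and 0.594), bora and CG42495 (1.20 and 1.96) lie farthest above the line.

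At the edges of the stretch, the 3 genes next below it (Oatp74D, CG34250 and UQCR-Q) and next above it (MED11, Nufip and Atg3) were compared as well. Oatp74D, an importer of ecdysone that crosses the lower edge, had 16.4 and 18.4 CPM of RNA in wild type and 16.3, 14.7 and 19.3 CPM in Polr3D EY/+. Its footprints were 34.8, 36.4 and 35.1 CPM in wild type and 22.8, 33.5 and 23.5 CPM in Polr3D EY/+. They were lower without overlap, as were 6.58% of all genes of that abundance, with a log2 difference of -0.40 (SE 0.33). Inside the lower edge U4-U6-60K, a spliceosomal protein gene, had an RNA difference of 0.02 (SE 0.28), and CG7564 comes next. DESeq2 and edgeR called 0 of the 6 outer genes in RNA and in footprints, and by unadjusted p under 0.05 both had 0 in RNA and 1 (Atg3) in footprints.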

How the data were processed

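Footprints and RNA were counted in whole female flies. The authors trimmed reads with Cutadapt (version 2.10) and quantified both assays with Salmon (version 0.13.2) against a decoy-aware BDGP6.32 transcriptome with noncoding RNAs. The deposited values are estimated counts for each transcript model, in whole numbers, with no normalisation. Strandedness is not given in the sources used here, so reads of overlapping genes on opposite strands may be mixed. Ribosomal RNA remained in the table and stays out of CPM.

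Of 28367 features, 28345 matched the Drosophila annotation (release 115, same assembly) and 22 did not. The unmatched ones held at most 0.0440% of a library. Counts were summed per gene. All columns were mapped to samples, and RNA-Seq of wild-type replicate 3 was not analysed here. The main test was DESeq2 (version 1.42.0, R 4.3.3), a two-sided Wald test on 10 libraries with replicate number, genotype, assay and the genotype-by-assay interaction as terms, as in the study. EdgeR (version 4.0.16) was an alternative. The script was tested on simulated data with known changes. The alternatives also covered normalisation, filters, thresholds, libraries, the replicate block and transcripts. Nothing says that replicates came from separate cultures, so p-values measure only the spread between these samples. Floors cover counting error only, while the SEs are those of the DESeq2 fit, which also estimates the spread between libraries.

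The genes and lists were chosen with earlier results of these data known. Genes named were Polr3D, CG7542, the 5 nearest on each side, every called gene, the 6 most positive and the 6 most negative RNA changes among the 60 abundant ones, and listed genes of the stretch. Others were named after their values were seen, such as the transcripts, genes beside CG7542 and CG7564, and pairs of shared function.

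Of the listed markers of other cell types, DESeq2 called none of 15 eggshell genes in RNA or footprints, with 0 and 3 at an unadjusted p under 0.05. EdgeR called 0 and had 0 at that p. For RNA and footprints, the share of all genes at that p is not given here, so counts at it are a description.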

Additional observations from a re-analysis of the deposited data

How the results depend on the processing

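The counts of called genes of the stretch moved with the method. In RNA, the 3 calls became 1 (CG7542) in edgeR, with each assay fitted alone and without the RNA-Seq library of mutant replicate 1, and 1 to 2 over the replicates left out, 1 for each but mutant replicate 3. In footprints, the 1 call became 0 with each assay alone, 0 to 2 over the replicates left out (0 without mutant replicate 1, and 2 without wild-type replicate 2, where Met75Cb joined CG7542), and 4 with transcripts in place of gene sums (Adgf-A2, CG7542, Nedd4 and Pep). For translation efficiency, the 0 calls became 1 (MED19) with transcripts. In RNA, transcripts gave 4 calls (CG32192, MED19, CG7542 and Adgf-A2). Except for CG7542 each rests on 1 RNA-Seq library. The MED19 transcript had 368 RNA counts in mutant replicate 2 and 0 elsewhere, but 24 to 77 footprints in every library. The Adgf-A2 transcript had 2 footprints in mutant replicate 3, and that of Nedd4 had 39 in wild-type replicate 2, with 0 elsewhere. That of Pep had 0 in wild-type replicate 1 and 84 to 254 elsewhere. The log2 values of CG7542, given without a test, ran from -1.50 to -1.04 in RNA and from -1.20 to -0.83 in footprints over 15 alternatives. Without a wild-type replicate, RNA-Seq had 1 wild-type library, which was then assumed to vary like the other groups. No sign of a called value was reversed. Over all genes, RNA calls were 135 in the main model, 15 in edgeR, 20 with a minimum mean of 10, 3 in RNA alone, 66 with 11 libraries, 490 genes by transcripts and 5 to 46 over the replicates left out. Footprint calls were 53, against 14 with the minimum mean, 702 by transcripts and 2 to 34 over the replicates left out. Why these counts moved was not tested.

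Whether samples of the same replicate number deviate together could be looked at in footprints only. There, the correlations of their deviations were -0.08 to 0.04, against -0.08 to 0.07 for unlike numbers, so no pairing by number was seen. In RNA the correlations were -0.44 and -0.62. With only 2 wild-type RNA-Seq libraries, their deviations mirror each other, so these values can neither show nor exclude pairing. The model of the study names the replicate number a batch, and the labels do not say what the number marks. With no replicate block, RNA had 2 calls (CG7542 and CG7564), footprints 1 and translation efficiency 1 (CG7564), and over all genes 41 RNA calls. Of the 105 genes, 45 did not reach the minimum mean in both assays, of which 4 reached it in RNA alone and 6 in footprints alone. Whether depth, the size factors or low expression set these numbers was not tested.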

Other observations

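Beyond the stretch, 97 genes lay within 500 kb of its edges, and DESeq2 called 3 of them in RNA and 1 in footprints, where 1.02% and 0.369% of all genes were called. In edgeR none of these 4 was called. CG6839, 808 kb from Polr3D, had 122 and 106 CPM of RNA in wild type and 64.3, 76.5 and 62.0 CPM in Polr3D EY/+, a fall of 0.73 on the log2 scale (SE 0.19, DESeq2 adjusted p = 0.0241, edgeR adjusted p = 0.226). The gene next to it, CG3819, had footprints of 90.9, 86.9 and 82.4 CPM in wild type and 143.9, 158 and 141 CPM in Polr3D EY/+, a rise of 0.74 (SE 0.20, DESeq2 adjusted p = 0.0672, edgeR adjusted p = 0.148). Its RNA difference was 0.54 (SE 0.17, DESeq2 adjusted p = 0.158). In CG6839 the RNA values, and in CG3819 the footprint and the RNA values, did not overlap between the genotypes. The other calls, Acp76A and Spn75F, rest on a single library: they had RNA in the library of mutant replicate 1 alone, at 1.89 and 1.56 CPM, where the male-expressed genes also had their counts.

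Of 79 noncoding genes annotated in the stretch, 14 had a row in the table, and 2 had over 10 RNA counts in every library. The antisense RNA CR45175 had 25 and 38 counts in wild type and 33, 44 and 40 in Polr3D EY/+. The long noncoding RNA CR32194 had 35 and 18 counts in wild type and 20, 27 and 20 in Polr3D EY/+. Both overlapped between the genotypes. DESeq2 and edgeR called 0 of the 14 in either assay, with 0 at an unadjusted p under 0.05.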
